A study of Mus musculus with 10 samples.

Results

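The amylases and secreted nucleases examined here are 5 genes whose products digest starch, RNA or DNA outside the cell: Amy1, Amy2a5, Amy2b, Rnase1 and Dnase1. They were chosen by symbol from the 24421 genes of a raw count table and followed across libraries labelled Insr WT, Insr Het and Insr KO. Of these 5 genes, 4 passed a filter on low counts (at least 10 counts in enough libraries, by edgeR's filterByExpr), and Dnase1 had no count in any library. Amy2a5 passed only through 3 libraries, so the number that passed is a description.

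Each library came from 1 female mouse aged 12 weeks, from a fragment taken at the tail end of its pancreas. All groups carried Ptf1aCreER, in which the Ptf1a gene, active in the enzyme-making acinar cells of adult pancreas, drives a Cre recombinase switched on by tamoxifen, and nTnG, a nuclear fluorescent reporter of Cre activity. As labelled, the groups differ in the insulin receptor gene Insr: 3 WT libraries came from Insr w/w mice with 0 floxed alleles, 3 Het libraries from Insr w/f mice with 1, and 4 KO libraries from Insr f/f mice with 2. One WT mouse more is counted in the labels and was not analysed here. By its title, the series concerns acinar insulin receptor signalling and the making of digestive enzymes. The libraries are of whole tissue, so fewer acinar cells and less RNA per cell cannot be told apart.

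Acinar cells release amylase as an active enzyme that cuts starch, together with pancreatic ribonuclease, which Rnase1 encodes, and with proteases and lipases. Pancreatic amylase is a classic insulin-responsive product of this tissue: amylase transcripts are known to fall in diabetic rodents and to recover with insulin. Amy2a and Amy2b genes are pancreatic amylases, Amy1 is the amylase of salivary gland and liver, and Dnase1 encodes a secreted deoxyribonuclease.

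The sequences of the amylase genes are shown first because they set what a count can resolve. The mouse amylase genes lie next to each other on the minus strand of chromosome 3 (GRCm38). Amy2b spans chr3:113147656-113156727, Amy2a5 spans chr3:113249178-113258699 and Amy1 spans chr3:113555952-113577750 in RefSeq. RefSeq lists Amy2b as protein coding, and GENCODE M21 lists it as an unprocessed pseudogene. Over the 1524 bases of the Amy2a5 coding part, Amy2a4, Amy2a3 and Amy2a2 were identical to Amy2a5, Amy2b differed at 29 of 1523 aligned bases (98.1% identity), and Amy1 differed at 154 of 1524 (89.9% identity). The lines below give coding bases 187 to 246 of Amy2a5, counted from the first coding base, and the aligned bases of 3 other genes from GENCODE M21. Among windows of 60 bases without gaps, this one was picked because Amy2b differed most from Amy2a5 in it. It therefore overstates their difference over the whole coding part. Capitals mark the bases that differ from Amy2a5.
Amy2a5: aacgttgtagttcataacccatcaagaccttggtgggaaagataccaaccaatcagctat
Amy2a4: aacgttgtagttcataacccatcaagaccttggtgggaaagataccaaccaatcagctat
Amy2b: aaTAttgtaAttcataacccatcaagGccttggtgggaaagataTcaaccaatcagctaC
Amy1: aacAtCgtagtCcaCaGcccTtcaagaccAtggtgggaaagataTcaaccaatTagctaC
Amy2b had 6 differences in these 60 bases and Amy1 had 10, while Amy2a4 had 0 and cannot be told from Amy2a5 here by any read.

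How far each gene can be told from others was measured as the share of its transcript stretches that occur in no other gene's GENCODE M21 transcripts. At a stretch length of 100 bases, 88.6% of Amy2b, 69.2% of Amy1, 100% of Rnase1 and 90.4% of Dnase1 were particular to the gene. Amy2a2, Amy2a3 and Amy2a4 had 0%. For Amy2a5 it was 55.7% over the GENCODE gene model, which is longer than that of RefSeq, and 0% of 1478 stretches within the RefSeq bounds. At this length, all of the shared part of Amy1 (30.8% of its stretches) was shared with Rnpc3, a splicing gene whose model overlaps Amy1 on the same strand. For comparison, 24 other digestive enzyme genes had a median of 100% and a lowest value of 55.0%. Rnase1 (chr14:51145002-51146767, minus strand) overlapped no annotated gene, and Dnase1 (chr16:4036958-4040024, plus strand) overlapped Trap1 and Gm15879, both on the minus strand. How the authors counted reads that match several genes, and whether strand was used, is not given in the sources used here, so the amylase counts are uncertain to that extent.

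**Figure D1:**
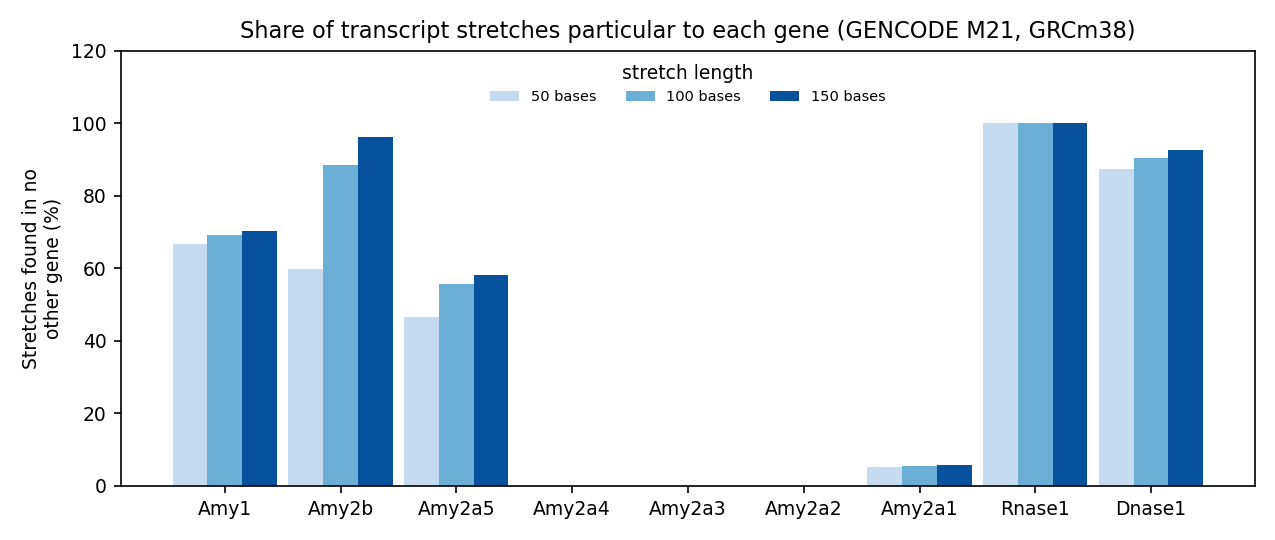
Share of transcript stretches (y axis, %) found in no other gene, for stretches of 50, 100 and 150 bases (bar shades), for each amylase gene and for Rnase1 and Dnase1 (x axis). Rnase1 stands at 100% at each length, Amy2b rises from 59.8% to 96.1% with length, and Amy2a2, Amy2a3 and Amy2a4 stay at 0%.

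Promoter windows of 250 bases before the RefSeq start were read from RefSeq's GRCm38.p6 table and are shown for 4 of the 5 genes, since the levels of Amy2b, Amy1 and Rnase1 varied together over the 10 libraries (Pearson's r of log2 CPM between pairs of 0.958 to 0.988). The windows were searched on both strands for CANNTG, the E-box, and TGGGAA, 2 elements known to be bound together by the acinar factor PTF1. No E-box in them overlapped a TGGGAA match. Capitals mark the matches.
Amy2b (chr3:113156728-113156977, minus strand): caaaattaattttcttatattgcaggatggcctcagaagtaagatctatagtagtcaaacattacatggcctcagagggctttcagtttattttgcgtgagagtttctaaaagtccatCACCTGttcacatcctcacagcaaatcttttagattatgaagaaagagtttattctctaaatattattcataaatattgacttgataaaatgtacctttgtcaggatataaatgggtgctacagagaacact
Amy2a5 (chr3:113258700-113258949, minus strand): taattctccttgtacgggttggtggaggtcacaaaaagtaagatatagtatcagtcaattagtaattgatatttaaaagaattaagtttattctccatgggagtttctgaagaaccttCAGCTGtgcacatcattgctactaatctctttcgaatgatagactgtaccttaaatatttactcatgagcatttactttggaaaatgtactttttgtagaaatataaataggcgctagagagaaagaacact
Amy1 (chr3:113577751-113578000, minus strand): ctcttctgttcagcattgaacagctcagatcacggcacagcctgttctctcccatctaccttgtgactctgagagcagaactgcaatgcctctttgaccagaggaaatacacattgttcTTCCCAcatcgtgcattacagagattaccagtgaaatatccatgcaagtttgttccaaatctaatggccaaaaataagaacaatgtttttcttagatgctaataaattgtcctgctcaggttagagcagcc
Rnase1 (chr14:51146768-51147017, minus strand): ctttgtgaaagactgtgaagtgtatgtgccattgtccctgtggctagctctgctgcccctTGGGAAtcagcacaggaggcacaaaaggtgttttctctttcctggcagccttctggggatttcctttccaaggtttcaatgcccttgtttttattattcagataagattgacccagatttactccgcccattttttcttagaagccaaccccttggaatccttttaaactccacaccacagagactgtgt
Amy2b and Amy2a5 each held 1 E-box, CACCTG and CAGCTG, whose first base lay 132 bases before the start in both. Rnase1 held TGGGAA at 190 bases before its start, and Amy1 held its reverse complement TTCCCA at 131 bases. None of these 4 windows held both elements, and a second RefSeq start of Amy1 (window chr3:113574763-113575012) held neither. Of 32851 promoters in the table, 66.2% held an E-box, 21.6% held TGGGAA and 14.8% held both in 250 bases. The Amy2b and Amy2a5 windows were identical at 175 of 267 alignment columns (65.5%), and those of Amy2b and Rnase1 at 50.4%. Gap columns are counted here but were left out of the coding identities, so these values are not on the same measure.

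Total gene counts ran from 11718559 to 19024351. Insr had 253 to 1259 counts per library and its log2 fold change between KO and WT was 0.09 (SE 0.26, edgeR adjusted p = 0.864), so gene counts of whole tissue do not check the labels. WT-2404 stood apart: the 24 other digestive enzyme genes took 15.6% of its gene counts, against 56.8% to 75.6% in the other 9 libraries, and its summed level of 8 acinar markers was 19704.5 CPM against 149220 CPM or more elsewhere. CPM are counts-per-million of the library size scaled by TMM, a factor that evens out the bulk of genes and ran from 0.596 in KO-2126 to 3.53 in WT-2404, so the levels of abundant genes depend on it. The fold changes of Amy2b, Amy1 and Rnase1 are therefore also given relative to the other enzyme genes and without single libraries.

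Amy2b was the most counted amylase, with 2246 to 14136 counts per library. Its level in the WT libraries was 37.5 CPM (WT-2404), 475 (WT-1860) and 792 (WT-2067). In the Het libraries it was 820 CPM (Het-2042), 1240 (Het-2066) and 1254 (Het-1770). In the KO libraries it was 443 CPM (KO-2124), 820 (KO-2079), 1303 (KO-2070) and 1341 (KO-2126). All 3 Het libraries thus lay above all 3 WT libraries, while KO-2124 lay below 2 of the WT libraries. The means were 435 ± 379 CPM in WT (SD, n = 3), 1105 ± 246 CPM in Het (SD, n = 3) and 977 ± 428 CPM in KO (SD, n = 4).

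Amy1, the amylase known from salivary gland and liver, had 456 to 1880 counts per library. Its level in the WT libraries was 7.62 CPM (WT-2404), 36.2 (WT-1860) and 99.0 (WT-2067). In the Het libraries it was 75.3 CPM (Het-2042), 145 (Het-1770) and 153 (Het-2066). In the KO libraries it was 55.5 CPM (KO-2124), 116 (KO-2079), 157 (KO-2070) and 170 (KO-2126). Both WT-2404 and WT-1860 were below every Het and KO library, and WT-2067 lay within their range. The means were 47.6 ± 46.8 CPM in WT, 124 ± 42.7 CPM in Het and 125 ± 51.6 CPM in KO (SD over the same mice). Markers of salivary gland (Bpifa2, Smgc, Dcpp1 and Prol1) had 0 counts in all 10 libraries, and the summed level of 4 liver markers was 0.885 to 10.1 CPM.

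Rnase1, the pancreatic ribonuclease, was counted far more than any amylase row, with 51199 to 360036 counts per library. Its level in the WT libraries was 855 CPM (WT-2404), 11061 (WT-1860) and 22050 (WT-2067). In the Het libraries it was 19363 CPM (Het-2066), 21659 (Het-2042) and 30665 (Het-1770). In the KO libraries it was 8541 CPM (KO-2124), 19194 (KO-2079), 33597 (KO-2070) and 33999 (KO-2126). The highest WT library overlapped both other groups, and KO-2124 lay below WT-1860. The means were 11322 ± 10600 CPM in WT, 23896 ± 5974 CPM in Het and 23833 ± 12303 CPM in KO (SD over the same mice). As a share of all gene counts, Rnase1 took from 0.302% in WT-2404 (Wilson 95% interval 0.300% to 0.305%) to 2.12% in KO-2070 (2.11% to 2.13%), intervals that cover counting error only. All amylase rows together took 0.0159% (WT-2404) to 0.116% (Het-2066). The rows of Amy2a2, Amy2a3 and Amy2a4, which hold no stretch of their own, added no counts to this. How reads that match several genes were counted is not given, so the sum may leave out amylase reads.

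**Figure D2:**
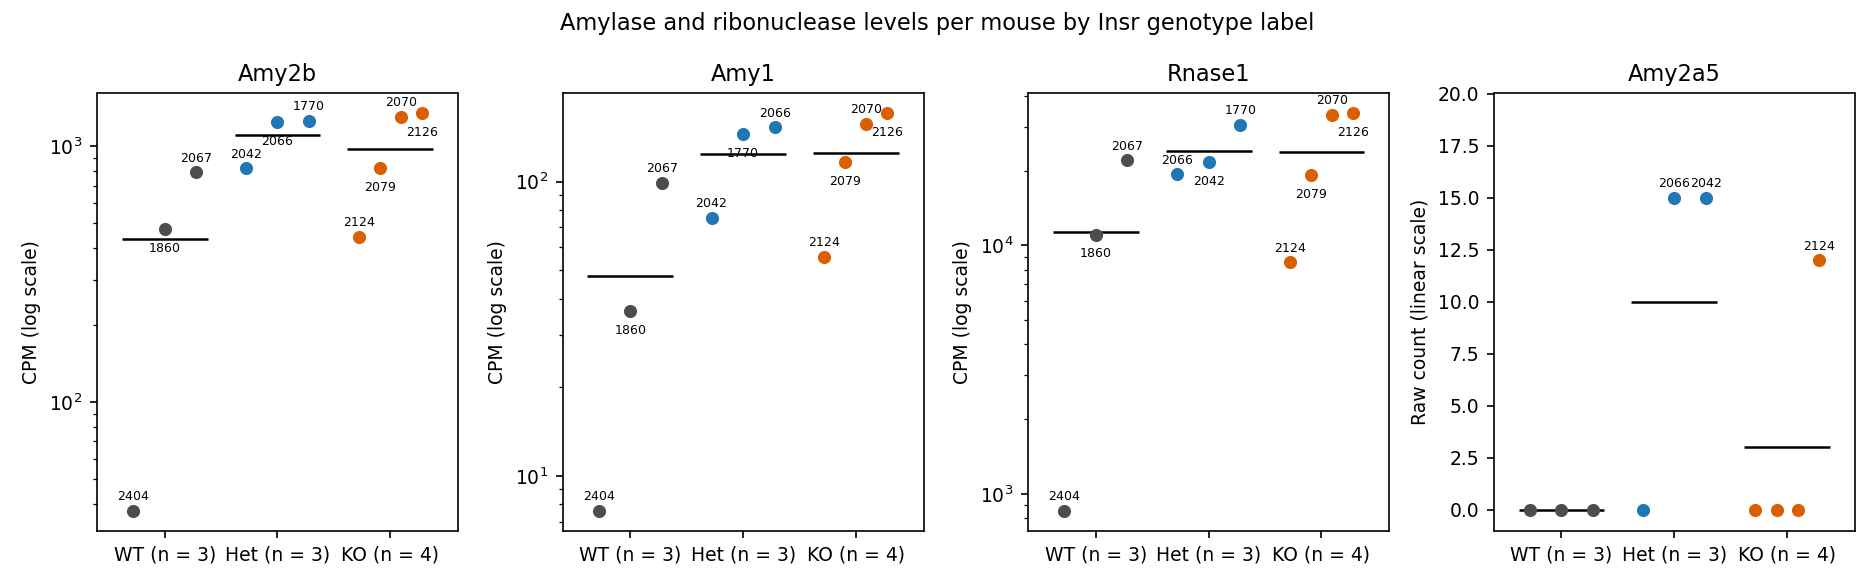
Level of Amy2b, Amy1 and Rnase1 (y axis, CPM on a log scale) and raw count of Amy2a5 (y axis, linear) for each mouse, by Insr genotype label (x axis). Each point is 1 library with its mouse number (for Amy2a5, only where a count was found), and lines are group means; WT-2404 is the lowest point for the first 3 genes and KO-2124 the lowest KO point.

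Levels of different genes were compared per length, as CPM per kilobase of the longest GENCODE transcript. In KO libraries Rnase1 stood at 24025 ± 12402, Amy2b at 619 ± 271 and Amy1 at 62.9 ± 26.0 CPM per kilobase (SD, n = 4). In WT libraries the same values were 11414 ± 10686, 276 ± 240 and 24.0 ± 23.6 (SD, n = 3). The order Rnase1, Amy2b, Amy1 held in each of the 10 libraries, although the SD of each gene in WT was nearly as large as its mean. The amylase values cover only reads assigned to these rows, not amylase as a whole.

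Amy2a5, the pancreatic amylase whose coding part is identical to that of 3 neighbours, was counted in 3 libraries, with 15 counts in Het-2066, 15 in Het-2042 and 12 in KO-2124. It had 0 counts in the other 7, among them all 3 WT libraries. Counts of 0 allow up to 3 counts, or 0.0501 to 0.184 CPM in the WT libraries, and the levels in the 3 libraries with counts were 1.32, 0.920 and 0.553 CPM. Amy2a2, Amy2a3 and Amy2a4, which hold no stretch of their own, had 0 counts in all 10 libraries. Dnase1 also had 0 counts in all 10 libraries, at depths where a count of 0 allows a share of up to 2.56e-05% of gene counts in the shallowest one. The part of read assignment in these zeros was not tested.

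The first comparison sets libraries with 2 floxed alleles, labelled KO, against WT. Amy2a5 is left out of the tests against WT, since it was at 0 in all WT libraries and passed the filter through 3 others. The other 3 genes, counted in every library, had a fitted log2 fold change above 0, as had 51.8% of all tested genes. None passed an adjusted p of 0.05 (0 of 3, where the share over all 13688 tested genes was 0%). Without adjustment, 3221 genes (23.5%) had a p under 0.05, among them 0 of these 3, and DESeq2 placed 1009 genes (7.37%) past the threshold, none of them Amy1, Amy2b or Rnase1. For Amy2b, the log2 fold change was 1.17 (SE 0.75, 95% interval -0.48 to 2.81, edgeR adjusted p = 0.354). For Amy1, it was 1.39 (SE 0.69, 95% interval -0.14 to 2.92, edgeR adjusted p = 0.245). For Rnase1, it was 1.07 (SE 0.88, 95% interval -0.84 to 2.99, edgeR adjusted p = 0.470). Each interval holds both lower and several-fold higher levels in KO, and the groups did not separate for any of these genes (0 of 3, against 15.9% of all tested genes).

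These fold changes rested on single WT libraries. Without WT-2404 the log2 fold changes between KO and WT were 0.61 for Amy2b, 0.86 for Amy1 and 0.50 for Rnase1. Without WT-2067, the WT library with the highest levels, they were 1.94, 2.53 and 2.01, and Amy1 then passed the threshold (edgeR adjusted p = 0.0413), the only one of the 3 to do so, as did 13.6% of the 14172 genes tested in that fit.

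In the second comparison, Het against WT, which shares the WT libraries with the first, the same 3 genes were above 0, as were 50.3% of all tested genes. Of these 3, 0 passed, at a background of 0% by edgeR (2714 genes, or 19.8%, at an unadjusted p under 0.05, and 400 genes, or 2.92%, past the threshold by DESeq2). The log2 fold changes were 1.35 for Amy2b (SE 0.79, edgeR adjusted p = 0.341), 1.39 for Amy1 (SE 0.73, edgeR adjusted p = 0.294) and 1.08 for Rnase1 (SE 0.93, edgeR adjusted p = 0.509). Amy2b was the only 1 of the 3 whose Het libraries all lay above all WT libraries, which 11.3% of tested genes also did. Without WT-2404 the 3 values were 0.81, 0.88 and 0.54, and without WT-2067 they were 2.11, 2.52 and 2.01, where the edgeR adjusted p of Amy1 was 0.0542 and 8.17% of tested genes passed.

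The third comparison, KO against Het, asks whether a second floxed allele adds to the first. The log2 fold changes were -0.18 for Amy2b (SE 0.72, 95% interval -1.77 to 1.41), 0.0031 for Amy1 (SE 0.67, 95% interval -1.47 to 1.47) and -0.0038 for Rnase1 (SE 0.86, 95% interval -1.87 to 1.86). All edgeR adjusted p values were 1.0, and 0 of 13688 genes passed (0%), with 103 genes (0.752%) at an unadjusted p under 0.05 and 0 by DESeq2. The ranges of KO and Het overlapped for each gene, while 2.46% of tested genes had separate ranges. The intervals leave room for a change of more than 2-fold either way, so a difference of that size was not detectable here.

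**Figure D3:**
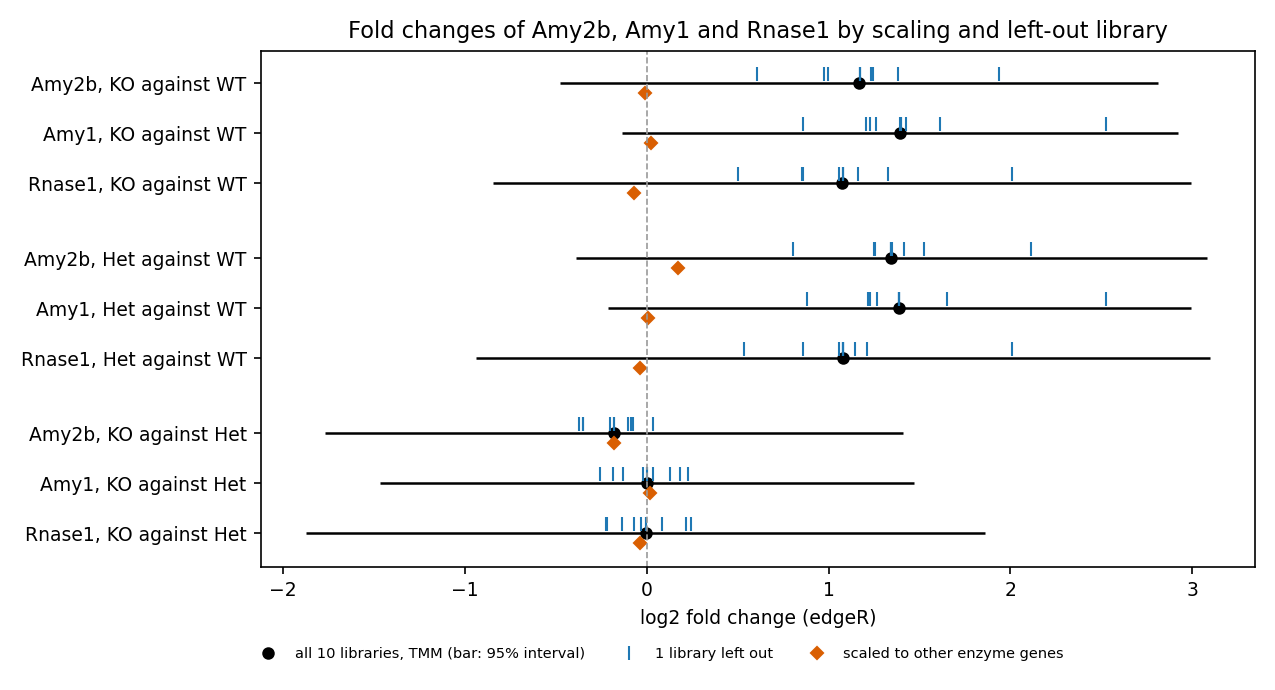
Fitted log2 fold changes (x axis) of Amy2b, Amy1 and Rnase1 in the 3 comparisons (y axis). Black points are the fit on all 10 libraries with TMM and bars its 95% intervals, blue ticks are fits without 1 library, and orange diamonds are fits scaled to 24 other digestive enzyme genes, where Amy2b (-0.0079) and Rnase1 (-0.070) for KO against WT and Rnase1 (-0.033) for Het against WT changed sign.

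The counts of each gene were also set over the summed counts of 24 other enzyme genes of the same library, which needs no library scaling. Amy2b stood at 0.849 counts per 1000 enzyme counts in WT-2404, 0.996 in WT-2067 and 1.31 in WT-1860. It stood at 1.0 to 1.47 in the Het and at 0.980 to 1.09 in the KO libraries. WT-2404, far below the rest in CPM, was thus still the lowest library on this scale, but close to the others. Amy1 stood at 0.0995 to 0.172 counts per 1000 in WT, 0.0920 to 0.182 in Het and 0.123 to 0.149 in KO libraries. Rnase1 stood at 19.4 to 30.4 in WT, 23.0 to 26.5 in Het and 18.9 to 28.1 in KO libraries. WT-2404 was the second highest library for Amy1 and the second lowest for Rnase1, and the groups overlapped for all 3 genes.

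On this ratio scale (log2, with 0.5 added to the count), the KO minus WT differences were 0.014 for Amy2b, 0.057 for Amy1 and -0.060 for Rnase1. Two-sided exact permutation tests gave p = 0.886, 0.8 and 0.714, with 0.0286 the smallest that 3 against 4 mice allow. The Het minus WT differences were 0.17, -0.014 and -0.010 in the same order (exact p = 0.5, 0.9 and 1.0, where 3 against 3 cannot go below 0.1). The KO minus Het differences were -0.16, 0.072 and -0.050 (exact p = 0.343, 0.8 and 0.857). These differences depended on the denominator. Leaving out the trypsinogen genes changed the sign for Amy1 and Amy2b in KO against WT. Ctrb1 (chymotrypsinogen B) alone changed it for Rnase1 in both comparisons with WT and for Amy1 in Het against WT. Over Ctrb1, KO minus WT was 0.71 for Amy1 (exact p = 0.0286, the smallest possible, unadjusted), 0.67 for Amy2b (exact p = 0.0571) and 0.59 for Rnase1 (exact p = 0.143). Het minus WT over Ctrb1 was 0.62 for Amy1, 0.81 for Amy2b and 0.62 for Rnase1 (exact p = 0.3, 0.4 and 0.6). No genotype difference beyond the spread between mice was detectable for any of the 3 genes relative to the enzyme genes as a whole.

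**Figure D4:**
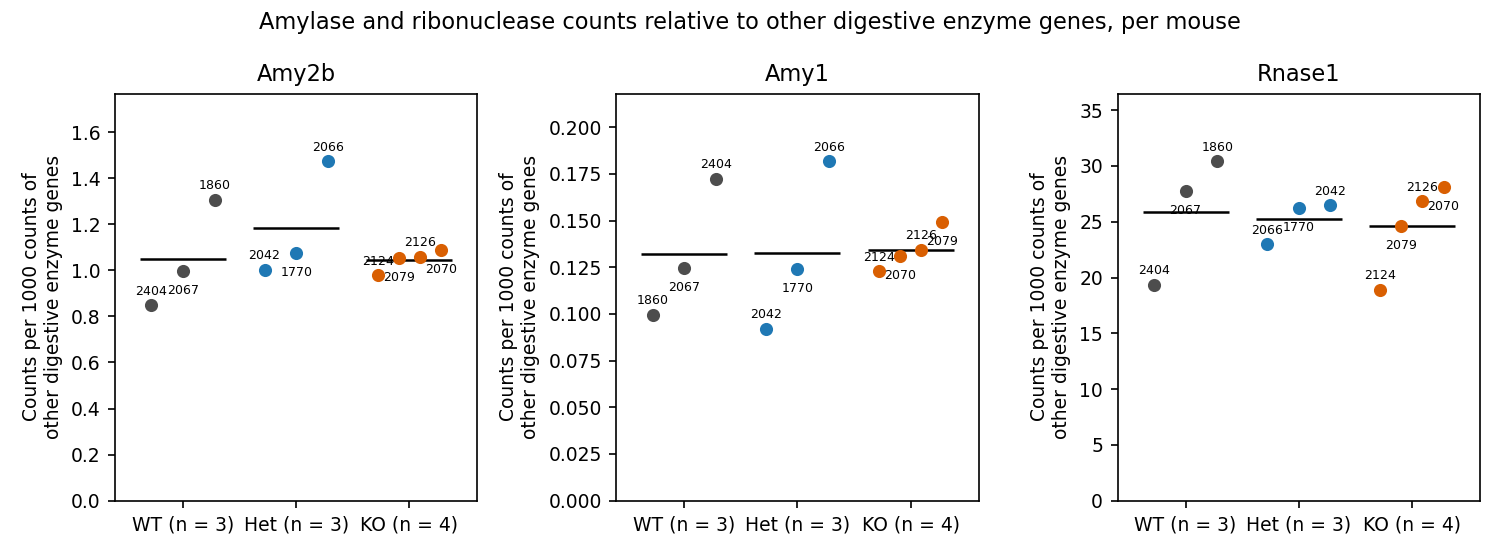
Counts of Amy2b, Amy1 and Rnase1 per 1000 counts of 24 other digestive enzyme genes (y axes, linear from 0) for each mouse, by Insr genotype label (x axis). Points are libraries with their mouse numbers and lines are group means; the 3 groups overlap in each panel, with Amy2b between 0.849 and 1.47.

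The genes were also set against each other. Of 9 comparisons of log2 ratios between Amy1, Amy2b and Rnase1, none passed. The largest was Amy1 over Amy2b in KO against Het, 0.23 higher in KO (exact permutation p = 0.0571, adjusted over the 9 p = 0.514). The other 8 had an exact permutation p of 0.657 or more.

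Across the 10 libraries, the levels of these genes followed the share of counts taken by the other digestive enzymes. For Amy2b, Pearson's r of log2 CPM with that share was 0.990 and Spearman's rho 0.964 (permutation p = 4e-05 for both). For Amy1, r was 0.965 (permutation p = 5e-05) and rho 0.891 (permutation p = 0.0012). For Rnase1, r was 0.989 (permutation p = 3e-05) and rho 0.952 (permutation p = 0.00013). These 3 relations had adjusted p = 5e-05 each for r, and 0.00012 for Amy2b, 0.0012 for Amy1 and 0.00019 for Rnase1 for rho. Without WT-2404 and WT-1860, the 2 libraries farthest from the median share, r was 0.931 for Amy2b, 0.864 for Amy1 and 0.994 for Rnase1. Both measures come from the same libraries, and the TMM factor that enters CPM is itself low where the enzyme share is high, so they are not independent.

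**Figure D5:**
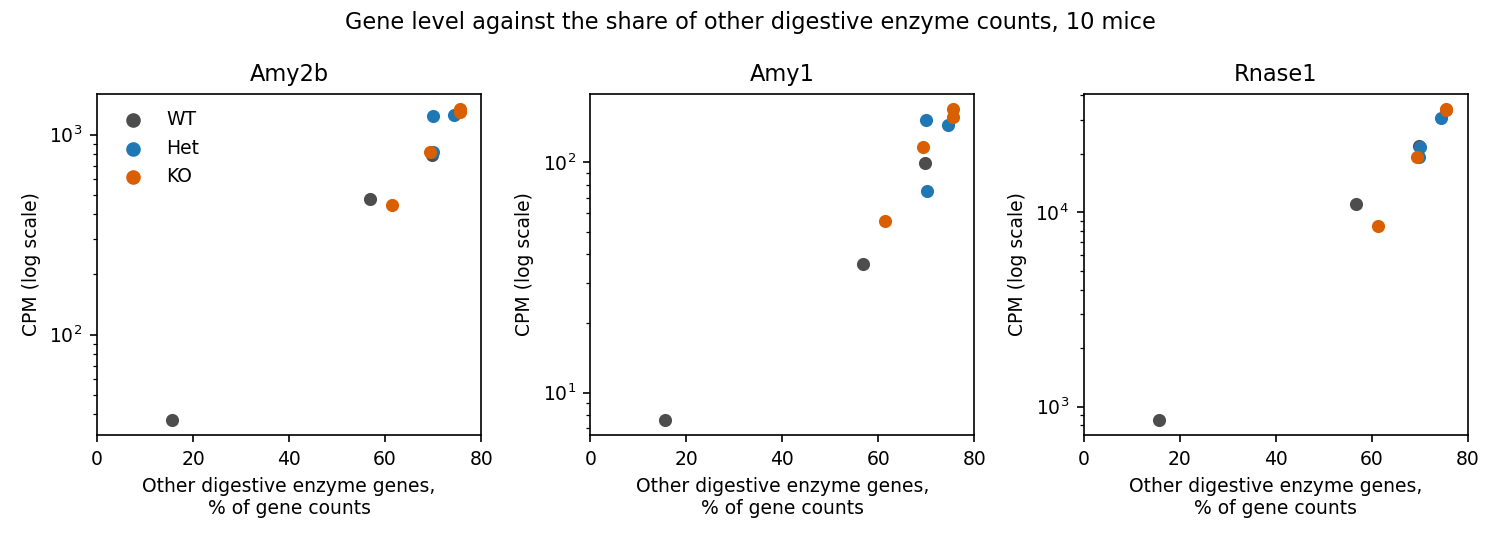
Level of Amy2b, Amy1 and Rnase1 (y axes, CPM on a log scale) against the share of gene counts taken by 24 other digestive enzyme genes (x axes, %). Each point is 1 of 10 libraries coloured by genotype label; WT-2404 lies alone at 15.6% and the others lie between 56.8% and 75.6%.

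The genes most like each one in log2 CPM over the 10 libraries were mostly other acinar products for Rnase1 and Amy2b. For Rnase1 they were Cpa1 (r = 0.998), Sycn, Cel, Pla2g1b and 2210010C04Rik, which are a carboxypeptidase, a zymogen granule protein, a lipase, a phospholipase and a trypsinogen. For Amy2b they were Cpb1 (r = 0.992), Cabp2, Clps, Azgp1 and Ero1lb, with Cpb1 a carboxypeptidase, Clps the colipase and Ero1lb an oxidase of protein folding. For Amy1 they were Aldh6a1 (r = 0.992), Irak1, Cuzd1, Cth and Bcl2l2, of which Cuzd1 is a zymogen granule protein. For Amy2a5 they were Arpc5l (r = 0.942), Psmg3, Churc1, Nip7 and Rmdn1, a likeness that rests on 3 libraries with counts.

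As a set, the other digestive enzymes had the same pattern by CPM. In KO against WT, 24 of 24 were above 0, where 51.8% of all tested genes were, and 0 passed. The median log2 fold change was 1.15, against 0.025 over all tested genes. In Het against WT, 24 of 24 were above 0, where 50.3% of all tested genes were, and 0 passed. The median was 1.21, against 0.0047. The 2 medians were 0.61 and 0.70 without WT-2404 and 2.12 and 2.14 without WT-2067, where 3 and 2 of the 24 passed, in fits in which 13.6% and 8.17% of all tested genes did. At an unadjusted p under 0.05 there was 1 of 24 in each comparison, against 23.5% and 19.8% of all genes. DESeq2 called 1 and 0 of the 24, against 7.37% and 2.92% of all genes. By library size alone, 22 of 24 were above 0 in each comparison, and scaled to their own summed counts, which centres the list, 13 and 12 were. The 4 most abundant were Ctrb1, the lipase Pnlip and the elastases Cela2a and Cela1. Pnlip, for example, was at 45117 ± 47702 CPM in WT, 122878 ± 15286 in Het and 132315 ± 52515 in KO, with an edgeR adjusted p of 0.375 between KO and WT. Ctrc differed from this pattern within groups, with 102741 counts in Het-2066, 87356 in KO-2070 and 102022 in KO-2124. In the remaining libraries it had 88 (WT-2404) to 3459 (WT-2067) counts. The cause of this split was not tested.

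Of 9 acinar transcription factors, 9 of 9 were above 0 in KO against WT, where 51.8% of all tested genes were. Their median was 0.63, against 0.025 over all tested genes. In Het against WT 9 of 9 were above 0, where 50.3% of all tested genes were. The median there was 0.56, against 0.0047, and 0 passed in either comparison. At an unadjusted p under 0.05 there were 1 and 2 of 9, against 23.5% and 19.8% of all genes. DESeq2 called 0 and 1, against 7.37% and 2.92% of all genes. Without WT-2404 the medians were 0.33 and 0.33, with 9 and 8 of 9 above 0. Without WT-2067 they were 1.10 and 1.01, with 1 and 2 of 9 passing, against 13.6% and 8.17% of all genes in those fits. By library size alone this turned, with 7 of 9 below 0 in each comparison, where the median of all genes was itself -1.17 and -1.36, and scaled to the enzyme genes 9 of 9 were below 0, where that median was -2.75 and -3.00. Rbpjl, a PTF1 subunit, was at 216 ± 184 CPM in WT, 243 ± 53.5 in Het and 330 ± 138 in KO libraries. Bhlha15 (Mist1), a factor of secretory cells, was at 122 ± 113 CPM in WT, 227 ± 35.7 in Het and 256 ± 126 in KO libraries. The spread in WT exceeded most differences between groups.

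The relatives of Rnase1 were near the background of all genes in direction. Of 21 genes of the RNase A family and its inhibitor, 10 had no count in any library and 6 were tested, of which 3 were above and 3 below 0 in both comparisons with WT, with 0 passing. For comparison, 51.8% and 50.3% of all tested genes were above 0. At an unadjusted p under 0.05 there were 3 and 1 of the 6, against 23.5% and 19.8% of all genes, and DESeq2 called 2 and 0, against 7.37% and 2.92%. The counts above 0 were 3 of 6 in both comparisons without WT-2404, WT-1860 or WT-2067 in turn. By library size alone 2 and 1 of the 6 were above 0, and scaled to the enzyme genes 0 were. Rnase4 was at 177 ± 89.1 CPM in WT, 309 ± 86.6 in Het and 355 ± 74.9 in KO libraries. Its log2 fold change between KO and WT was 1.0 (SE 0.36, edgeR adjusted p = 0.139). Ang, the angiogenin gene, was at 56.7 ± 51.5 CPM in WT, 126 ± 35.1 in Het and 163 ± 58.1 in KO libraries (log2 fold change between KO and WT 1.52, SE 0.54, edgeR adjusted p = 0.141). Ang and Rnase4 are known to share a promoter and leading exons, so their counts may not be independent. Rnh1, the cytosolic ribonuclease inhibitor, was at 62.5 ± 21.3 CPM in WT, 105 ± 23.9 in Het and 100 ± 43.7 in KO libraries. Ear2, an eosinophil-associated ribonuclease, was at 2.56 ± 1.54 CPM in WT, 0.595 ± 0.213 in Het and 1.37 ± 1.25 in KO libraries.

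Of 9 other secreted or lysosomal nuclease genes, 7 were tested, 5 were below 0 with both alleles floxed and 6 with 1 allele floxed, each against WT, and 0 passed. Of all tested genes, 51.8% and 50.3% were above 0 in these comparisons. At an unadjusted p under 0.05 there were 2 and 3 of the 7, against 23.5% and 19.8% of all genes. DESeq2 called 1 and 0 of the 7, against 7.37% and 2.92% of all genes. The Het count was 4 of 7 below 0 without WT-2404 and also without WT-2067, and the KO count was 6 of 7 without WT-1860. By library size alone and scaled to the enzyme genes, 7 of 7 were below 0. The medians were -0.53 and -0.58. They were -0.040 and -0.046 without WT-2404, and -0.73 and -0.78 without WT-2067, where 2 and 1 of 7 passed, against 13.6% and 8.17% of all genes in those fits. Pld4, an endolysosomal exonuclease of myeloid cells, was at 28.7 ± 17.4 CPM in WT, 10.2 ± 2.20 in Het and 9.54 ± 5.31 in KO libraries, with 47.5 CPM in WT-2404 alone (log2 fold change between KO and WT -1.57, SE 0.47, edgeR adjusted p = 0.121). Pld3, its relative, was at 57.6 ± 8.20, 56.1 ± 13.4 and 54.5 ± 17.4 CPM. The acid deoxyribonuclease Dnase2a was at 9.07 ± 4.62 CPM in WT, 6.11 ± 1.28 in Het and 6.29 ± 1.47 in KO libraries. Dnase1l1 was at 5.60 ± 1.85, 2.96 ± 0.868 and 2.85 ± 1.06 CPM.

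Marker levels of other cell types also differed between libraries. The summed level of 7 fibroblast markers was 1220 to 4324 CPM in WT, 494 to 954 in Het and 437 to 1097 in KO libraries, highest in WT-2404. That of 6 macrophage markers was 352 to 1396 CPM in WT, 187 to 288 in Het and 111 to 403 in KO libraries, again highest in WT-2404. That of 7 islet markers was 469 to 5633 CPM in WT, 4901 to 9758 in Het and 3558 to 8412 in KO libraries, lowest in WT-2404. Duct markers (6 genes) summed to 470 to 544 CPM in WT, 212 to 428 in Het and 227 to 358 in KO libraries. Endothelial markers (4 genes), of a cell type known to express Rnase1, summed to 71.5 to 109 CPM in WT, 96.8 to 112 in Het and 73.1 to 146 in KO libraries. B and T cell markers (6 genes) summed to 13.0 to 34.5 CPM in WT, 6.61 to 7.55 in Het and 1.72 to 19.8 in KO libraries. Adipocyte markers (4 genes) summed to 31.8 to 40.6 CPM in WT, 51.8 to 66.2 in Het and 37.2 to 81.1 in KO libraries. The WT and Het ranges did not overlap for the fibroblast, macrophage, duct, B and T cell and adipocyte lists. Those of WT and KO did not overlap for the fibroblast and duct lists. The fibroblast, macrophage, duct and B and T cell lists lay lower in Het than in WT, and the adipocyte list higher. The fibroblast and duct lists also lay lower in KO than in WT. For single genes, 15.9% of those tested had separate KO and WT ranges, in either direction. Another share, 11.3%, lay wholly higher in Het than in WT, the direction of the adipocyte list only. The share wholly lower in Het was not computed. The part of these cells in the amylase and ribonuclease levels was not tested.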

How the data were processed

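The authors deposited 1 table of raw counts, whole numbers with a row per gene symbol and a column per mouse. The submitters' processing notes name DRAGEN, STAR, Cufflinks and mm10 without their roles, and the counting tool, the annotation and the use of strand are not given in the sources used here. RNA was isolated from frozen, pulverised tissue with a column kit, per the labels' protocols. A further part of the genotype, shared by all groups, is not reported here. All 10 columns were matched to mice by genotype and number, and 2 rows that name no gene stayed out; reads outside genes were 2.59% to 8.71% of all counts.

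Of 24421 genes, 6269 had no count and 13688 passed filterByExpr (minimum count 10). One edgeR 4.0.16 quasi-likelihood fit (TMM, robust, no covariates) over all 10 libraries gave fold changes, with Benjamini-Hochberg adjustment over all tested genes and a threshold of 0.05. DESeq2 1.42.0, other scalings and filters, and fits without each library were alternatives. Ratios per mouse (0.5 added) used two-sided exact permutation tests, and correlations 100000 resamples. Each library is 1 mouse and counted as 1 sample, and no 2 libraries of a group held the same values within sampling noise (chi-square over its degrees of freedom 26.5 to 988). Coding sequences were aligned with mafft 7.526. The members and gene lists were chosen with earlier results of these data known. The named genes were the 5 members, the 4 most abundant genes at most of each list, and the 5 most similar genes per member by Pearson's r of log2 CPM (prior count 2). The lists with other settings than the main one were run after seeing the data.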

Additional observations from a re-analysis of the deposited data

Results flagged for a closer look

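Among the KO libraries, 1 stood apart for Amy2a5: its level was 0.553 CPM in KO-2124 and 0 in the other 3. The same held relative to the other enzymes, with 0.00122 counts per 1000 enzyme counts in KO-2124 and 0 in the other 3. What marked them was the gap to the nearest library, above Dixon's critical value for 4 samples. With the other 3 at exactly 0, any count would have been marked, and a count of 0 allows up to 3 counts, or 0.395 CPM in KO-2070. Of 13 measures examined this way 2 were marked, and both come from the same 12 counts. The 13 include measures of Dnase1, at 0 in every library, which could not be marked. The number set by chance, about 0.65 of 13, therefore does not apply here.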

How the results depend on the processing

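No paired analysis was possible because the mouse numbers are not shared between groups. The number of genes past the threshold, 0 in the edgeR fit, was 2835 (KO against WT, 0 of them higher) and 3125 (Het against WT, 0 higher) by library size alone, where the median of all genes shifted to -1.17 and -1.36. It was 1009 (294 higher) and 400 (153 higher) with DESeq2, and 10070 and 9879 (2 higher in each) when scaled to the other enzyme genes, where the median shifted to -2.75 and -3.00. Leaving out 1 library gave 0 to 1933 genes (KO against WT) and 0 to 1158 (Het against WT), the highest without WT-2067. KO against Het stayed at 0 in every alternative run. Scaled to the other enzymes, the log2 fold changes of Amy2b (-0.0079) and Rnase1 (-0.070) for KO against WT and of Rnase1 (-0.033) for Het against WT changed sign. By library size alone, Amy2b, Amy1 and Rnase1 were at 0.50, 0.74 and 0.41 (KO against WT) and 0.69, 0.74 and 0.45 (Het against WT). In KO against Het, values near 0 changed sign: Amy1 at -0.0036 with DESeq2, Rnase1 at 2.0e-05 with every gene kept and 0.0039 with only the libraries compared. Without 1 library, Amy1 ran from -0.26 to 0.23, Amy2b from -0.37 to 0.037 and Rnase1 from -0.23 to 0.25.

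For the log2 ratios to the other enzymes, a denominator without trypsinogens gave -0.031 for Amy1 and -0.074 for Amy2b (KO against WT). Ctrb1 alone gave 0.71 for Amy1 (exact p = 0.0286), 0.67 for Amy2b and 0.59 for Rnase1 (KO against WT), and 0.62, 0.81 and 0.62 in that order (Het against WT). Without 1 library, KO minus WT ran from -0.13 to 0.27 for Amy1, -0.13 to 0.18 for Amy2b and -0.26 to 0.071 for Rnase1. Het minus WT ran from -0.27 to 0.22, 0.0052 to 0.34 and -0.21 to 0.12, and KO minus Het from -0.16 to 0.33, -0.27 to 0.0089 and -0.12 to 0.072 in the same order. Ratios between genes ran as follows. Amy1 over Amy2b ran from -0.31 to 0.40 (KO minus WT), -0.54 to 0.16 (Het minus WT) and 0.10 to 0.32 (KO minus Het). Amy1 over Rnase1 ran from -0.20 to 0.52, -0.32 to 0.40 and -0.15 to 0.44. Amy2b over Rnase1 ran from -0.017 to 0.13, -0.050 to 0.33 and -0.25 to 0.12. The cause of these changes was not tested. Of all alternatives run, 340 were labelled the same as the main setting. For effects this meant the same direction and side of the threshold, and for counts of genes a number close to the main one. Another 47 changed sign, 27 counts moved and 4 values newly passed. Among these 4, Amy1 over Ctrb1 passed by an unadjusted exact permutation p only. A further 2 were for Amy2a5, which is at 0 in all WT libraries and is not read as a result.

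Amy2a5 and Dnase1 were at or near 0 counts, and the parts of depth and of read assignment in this were not tested. For Amy2b, Amy1 and Rnase1 the spread between mice, with 3 or 4 per group, sets the precision.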
